A study of Mus musculus with 23 samples.

Results

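Transcripts of cholesterol synthesis and sterol transport were followed in whole mouse hearts from 2 models of a heart failure in which the ejection fraction is preserved (HFpEF). The set held 33 genes, taken by symbol out of the 52392 genes for which read counts could be recovered, and all 33 passed the filter on low values in both models. By role there were 8 genes of the mevalonate steps, 11 of the later sterol steps, 5 of the sterol sensor and its transcription factors, 5 of the LXR receptors with efflux and receptor-degrading targets, and 4 of intracellular cholesterol movement and storage.

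Cells build cholesterol from acetyl-CoA: the mevalonate steps make farnesyl diphosphate, squalene is formed from it, and the sterol steps close the rings and trim the product. When membrane sterol is low, Scap carries the SREBP transcription factors (genes Srebf1 and Srebf2) from the endoplasmic reticulum to the Golgi, where they are cut and released to switch on the synthesis genes; Insig1 and Insig2 hold Scap back when sterol is plentiful. Oxidised sterols activate the LXR receptors (Nr1h3 and Nr1h2), which raise the exporters Abca1 and Abcg1 and the ubiquitin ligase Mylip. Cholesterol taken up with lipoproteins leaves the lysosome through Npc2 and Npc1. The adult heart obtains much of its cholesterol from circulating lipoproteins.

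The db/db+Aldo group held 8 mice (4 female) of strain Leprdb/db, which lack a working leptin receptor and are obese and diabetic, with pumps that released d-aldosterone at 0.3 µg/h for 4 weeks from 12 weeks of age. Their controls were 7 wild-type mice (sham, 4 female) with pumps holding only saline and ethanol, and both groups ate normal chow. The HFD+L-NAME group held 4 wild-type mice (2 female) given a diet with 60 kcal% fat and L-NAME, an inhibitor of nitric oxide synthase, at 0.5 g/L in the drinking water for 15 weeks from 10 weeks of age. Their controls were 4 wild-type mice of the same age on standard chow (2 female). All mice were on the C57BL/6J background, and each library came from a whole-heart sample. Genotype and aldosterone, like diet and L-NAME, came together, so their shares cannot be told apart. Each model was sequenced in a run of its own, and no level is compared across runs. The labels give each heart a number and a sex and nothing further on independence, so each p-value rests on the spread among the hearts sampled.

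Libraries held 21258779 to 25692431 recovered counts, and in no group were 2 libraries alike within sampling noise. All 8 cardiomyocyte markers were abundant, with sums per library of 1059926 to 1258722 normalised counts in db/db+Aldo hearts and 1115885 to 1422347 in sham hearts. Transcripts of the mitochondrial genome took 46.6 ± 4.13% of counts in db/db+Aldo hearts (SD, n = 8) and 38.9 ± 4.68% in sham hearts (SD, n = 7). In the other model the shares were 48.4 ± 3.35% in HFD+L-NAME hearts and 48.1 ± 1.40% in chow hearts (SD, n = 4 each). Levels below are read counts divided by size factors (normalised counts). Changes are given with their standard error on the log2(normalised count + 1) scale, on which the change of a low gene is understated. A gene was called when its adjusted p in limma was under 0.05.

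Levels per kilobase of annotated exon differed widely between the steps. In sham hearts the squalene synthase gene Fdft1 had 222 normalised counts per kb, and Hmgcs1, which makes HMG-CoA, had 99.0. Squalene epoxidase Sqle had 6.73, lanosterol synthase Lss 6.16 and isopentenyl-diphosphate isomerase Idi1 6.18 normalised counts per kb. The lowest enzyme was Fdps with 4.62. The enzymes in between included Ggps1, which makes the geranylgeranyl side branch (66.2), Ebp (67.7) and Sc5d (68.2), both late sterol enzymes. The transcripts on either side of squalene therefore sat far apart in level, Fdft1 above the other enzymes and Sqle and Lss near the bottom. Among the regulators, Nr1h2 had 267 per kb and Insig2 148, while the cholesterol esterifying enzyme Soat1 had 6.85 and the exporter Abcg1 15.6. Chow hearts, read on their own, had Nr1h2 (428 per kb) and Fdft1 (261) at the top, and Lss (4.57), Fdps (4.86), Soat1 (5.22), Sqle (5.25) and Idi1 (5.41) at the bottom.

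Levels per kb also depend on the length used. Annotated exons and the longest coding transcript spanned 10787 and 4667 bases for Lss, 5546 and 2758 for Sqle. They spanned 4208 and 1382 bases for Fdps, 4227 and 3698 for Fdft1. Dividing by exon thus lowers Lss, Sqle and Fdps more than Fdft1. Not divided by length, sham means were 940 for Fdft1, 37.4 for Sqle and 66.4 for Lss. Some levels are also uncertain because genes share sequence. Of the Fdps transcript, 91.4% was shared at 95% identity or more with 5 other genes, and of Acat2 65.6% was shared with Acat3 and Tcp1. For Idi1 the share was 33.3% and for Ggps1 27.3%. Of the Fdft1 transcript 54.7% was shared, with a pseudogene and with Ctsb, whose 3′ end lies over that of Fdft1 on the opposite strand.

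**Figure D1:**
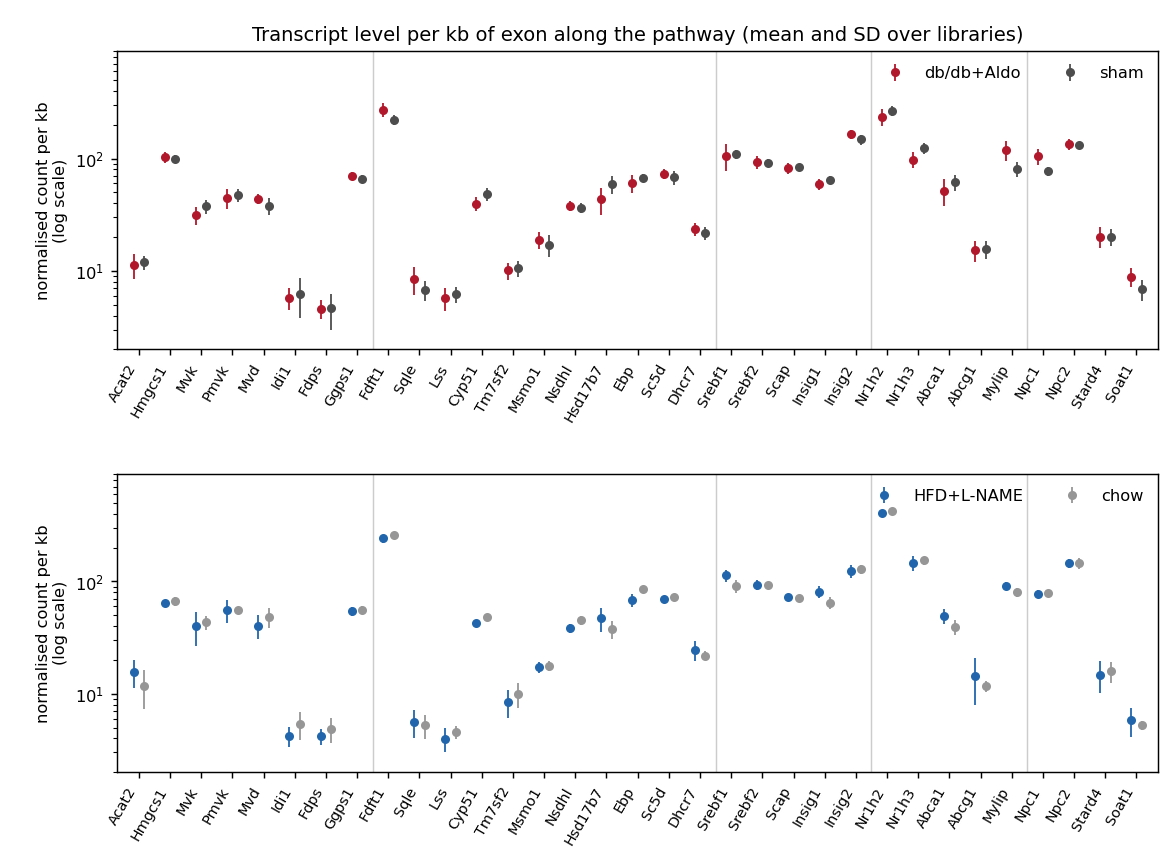
Mean normalised count per kb of exon (vertical axis, log scale, bars are SD over libraries) for the 33 genes ordered by role, db/db+Aldo and sham above, HFD+L-NAME and chow below. Fdft1 and Nr1h2 lie at the top in each group, and Idi1, Fdps, Sqle, Lss and Soat1 near the bottom.

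Upstream sequence was looked at for what the members share beyond their roles. RefSeq (GRCm38.p6) start sites were given for 27 of the 33 genes (not for Fdps, Fdft1, Sqle, Abcg1, Npc1 and Stard4), and the 250 bases before each start were searched on both strands. The 5 letters CCAAT, read on one strand or the other, stood in 22 of the 27 members (81.5%) and in 15 of 16 synthesis enzymes, against 37.5% of 27025 genes with a start site. The 6 letters GGGCGG stood in 22 of 27 members, or 81.5%, against 35.4% of all genes. Those 27025 genes were not limited to genes tested in these hearts, while all 33 members were tested. CACNCCAC, the core of a sterol regulatory element, stood in Acat2, Hmgcs1 and Insig1 (11.1%), against 6.0% of all genes; other spellings of that element were not searched. Nr1h3 and Nr1h2 held none of the 3. Of these sequences 2 are shown, an enzyme gene that did not pass the test in either model and an LXR target gene that did in one. Capitals mark CCAAT or its complement ATTGG, and CACNCCAC; these did not overlap.
Hmgcs1, chr13:119690101-119690350, plus strand: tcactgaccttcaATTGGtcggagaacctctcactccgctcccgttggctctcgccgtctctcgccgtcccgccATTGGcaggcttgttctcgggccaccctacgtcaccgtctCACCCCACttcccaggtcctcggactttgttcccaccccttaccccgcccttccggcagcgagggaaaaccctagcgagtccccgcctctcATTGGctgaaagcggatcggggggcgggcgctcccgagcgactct
Mylip, chr13:45389492-45389741, plus strand: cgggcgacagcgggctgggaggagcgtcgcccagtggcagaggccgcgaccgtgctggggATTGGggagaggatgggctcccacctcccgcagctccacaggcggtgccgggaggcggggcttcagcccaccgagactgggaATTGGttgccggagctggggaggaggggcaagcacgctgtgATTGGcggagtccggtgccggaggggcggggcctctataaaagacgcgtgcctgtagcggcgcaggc
In Hmgcs1 the CCAAT matches began 237, 176 and 45 bases before the start and the sterol element core 136 bases before it. In Mylip the CCAAT matches began 190, 108 and 67 bases before the start, with no CACNCCAC in the window. A match in letters is a description of the window and not a binding site.

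The first comparison set db/db+Aldo hearts against sham hearts. The lysosomal exporter Npc1, the lipoprotein receptor ligase Mylip and the synthase Fdft1 rose, and the receptor gene Nr1h3 fell. These were 3 higher and 1 lower of 33 members, or 12.1%, where 19.2% of the 14121 genes tested were called (9.96% higher, 9.21% lower), so the members' share was not above that of all genes. An unadjusted p under 0.05 was found for 8 of the 33 members and for 4535 of the 14121 genes. The median log2 change of the 33 was -0.01, and that of all genes tested was -0.02. The groups overlapped for each of the 33 members, where 4.08% of all genes had groups that did not.

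In the mevalonate steps 0 of 8 enzymes passed limma's test, with 1 at an unadjusted p under 0.05. That one was Mvk, mevalonate kinase, with means of 83.6 ± 15.6 in db/db+Aldo and 100.1 ± 13.7 in sham hearts, a log2 change of -0.27 ± 0.12 (SE, adjusted p = 0.133). Hmgcs1 had 473 ± 50.2 in db/db+Aldo and 455 ± 38.2 in sham hearts (SD, n = 8 and 7), with a change of 0.06 and a 95% interval of -0.11 to 0.22. The other log2 changes were -0.09 for Acat2, -0.09 for Pmvk, 0.22 for Mvd, -0.06 for Idi1, 0.04 for Fdps and 0.08 for Ggps1. Over the 8 enzymes the 95% intervals ran from -0.53 to 0.47. Summed over the 8, counts per library were 1037 to 1209 in db/db+Aldo and 1040 to 1156 in sham hearts, ranges that nearly coincide. Hmgcs1 and Ggps1 made up most of these sums.

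In the sterol steps Fdft1 rose and the other 10 enzymes did not pass. Fdft1, squalene synthase (chromosome 14, 63145150 to 63179578 on GRCm38, minus strand), joins farnesyl units to squalene at the entry to the sterol branch. It ranged from 927 to 1402 with a median of 1138 normalised counts in db/db+Aldo hearts, against 780 to 1086 with a median of 932 in sham hearts. Of the 8 db/db+Aldo hearts 6 lay above the highest sham heart, and the other 2 fell inside the sham range. The log2 change was 0.28 ± 0.09 (SE, adjusted p = 0.0312). Ctsb, which shares the 3′ end on the opposite strand, had 9529 ± 670 in db/db+Aldo and 9068 ± 609 in sham hearts, a change of 0.07 that did not pass, and whether counting used the strand is not given. The call for Fdft1 was lost, with an adjusted p of 0.0515 to 0.871, in 12 of the other settings, among them leaving out db/db+Aldo replicate 2, 3 or 8 or sham replicate 1, 2, 4 or 6, where its change lay between 0.24 and 0.28; over all 12 it lay between 0.03 and 0.28.

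Hsd17b7, a 3-keto reductase of the sterol steps, missed the threshold narrowly. It ranged from 119 to 324 with a median of 217 normalised counts in db/db+Aldo hearts, against 220 to 364 with a median of 315 in sham hearts. Of the db/db+Aldo hearts 4 lay below the lowest sham heart. Its log2 change was -0.46 ± 0.16 (adjusted p = 0.0504). Cyp51, the lanosterol demethylase, had 176 ± 23.8 in db/db+Aldo and 212 ± 26.9 in sham hearts, a change of -0.27 ± 0.10 (adjusted p = 0.0632). In the authors' deposited table both were below 0.05, Hsd17b7 with a log2 fold change of -0.44 and an adjusted p of 0.0319, and Cyp51 with -0.28 and 0.0425. The remaining log2 changes were 0.29 for Sqle, -0.12 for Lss, -0.07 for Tm7sf2, 0.14 for Msmo1, 0.06 for Nsdhl, -0.19 for Ebp, 0.12 for Sc5d and 0.10 for Dhcr7. Neighbouring steps therefore had changes of either sign, 10 of the 19 enzymes above 0 and 9 below. Summed over all 19 enzymes, counts were 3369 to 3975 per library in db/db+Aldo and 3354 to 3769 in sham hearts. Fdft1, with means of 1153 and 940, was the largest part of these sums, and low enzymes weigh little in them.

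**Figure D2:**
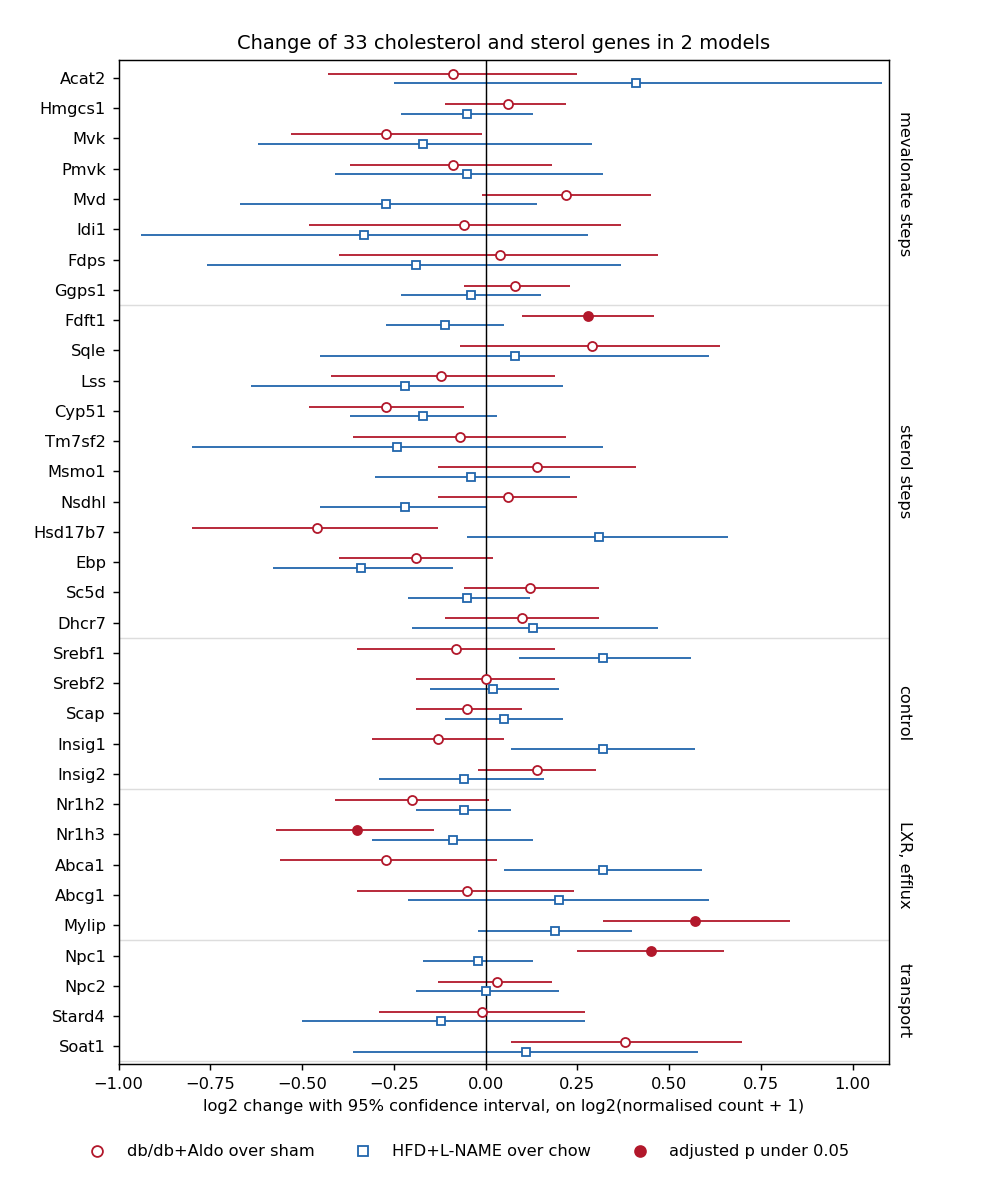
Log2 change with its 95% confidence interval for the 33 genes by role, db/db+Aldo over sham (red circles) and HFD+L-NAME over chow (blue squares). Filled points passed the test: Npc1, Mylip and Fdft1 lie right of 0 and Nr1h3 left of it, all in db/db+Aldo hearts, and no square is filled.

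The sterol sensor and its transcription factors had 0 of 5 genes called, and 0 at an unadjusted p under 0.05. Srebf2, which encodes the SREBP most tied to cholesterol synthesis, ranged from 460.0 to 738 with a median of 703 normalised counts in db/db+Aldo hearts, against 584 to 718 with a median of 671 in sham hearts. Srebf1, whose products are tied mainly to fatty acid synthesis, ranged from 430 to 933 with a median of 567.5 in db/db+Aldo hearts, against 568.2 to 708 with a median of 600.0 in sham hearts. The Srebf1 spread was wider in db/db+Aldo hearts, with an SD of 167 there and 54.4 in sham hearts, 2 hearts above the sham range and 4 below it. Insig1, itself an SREBP target and a common readout of the pathway, ranged from 148 to 212 with a median of 179 in db/db+Aldo hearts, against 174 to 216 with a median of 205 in sham hearts. Their log2 changes were -0.00 ± 0.09 for Srebf2, -0.08 ± 0.13 for Srebf1 and -0.13 ± 0.09 for Insig1, with 95% intervals of -0.19 to 0.19, -0.35 to 0.19 and -0.31 to 0.05. Insig2 had 0.14 ± 0.08 and Scap -0.05 ± 0.07.

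Among the LXR genes Mylip rose and Nr1h3 fell. Mylip (chromosome 13, 45389742 to 45412022, plus strand) encodes a ubiquitin ligase that sends receptors of the low-density lipoprotein family to the lysosome. It ranged from 265 to 480 with a median of 397 normalised counts in db/db+Aldo hearts, against 200.01 to 314 with a median of 246 in sham hearts. Of the 8 db/db+Aldo hearts 6 lay above the highest sham heart. This was a log2 change of 0.57 ± 0.12 (SE, adjusted p = 0.00229).

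Nr1h3 (chromosome 2, 91184061 to 91202834, minus strand) encodes LXR alpha. It ranged from 197 to 308 with a median of 248 in db/db+Aldo hearts, against 252 to 355 with a median of 316 in sham hearts. Of the 8 db/db+Aldo hearts 5 lay below the lowest sham heart. The log2 change was -0.35 ± 0.10 (SE, adjusted p = 0.0214). The call was lost without db/db+Aldo replicate 8, sham replicate 1 or sham replicate 5, with adjusted p up to 0.0556 and a change between -0.41 and -0.30 over all libraries left out in turn.

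The other LXR genes did not pass. Abca1, which loads cholesterol onto apolipoprotein A-I, ranged from 380 to 761 with a median of 487 in db/db+Aldo hearts, against 453 to 774 with a median of 675 in sham hearts, a log2 change of -0.27 ± 0.14 (adjusted p = 0.203). Abcg1, which exports cholesterol to high-density lipoprotein, ranged from 74.1 to 144 with a median of 116 in db/db+Aldo hearts, against 83.8 to 141 with a median of 113 in sham hearts, a change of -0.05 ± 0.14 (adjusted p = 0.836). Nr1h2, which encodes LXR beta, had a change of -0.20 ± 0.10 (adjusted p = 0.184). The 3 target genes grouped here with the LXR receptors thus had a change of either sign. Mylip was upward past the threshold, and both exporters were below 0 and within the spread.

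In transport Npc1 rose and Npc2, Stard4 and Soat1 did not pass. Npc1 (chromosome 18, 12189692 to 12236400, minus strand) encodes the membrane protein that moves cholesterol out of lysosomes. It ranged from 803 to 1410 with a median of 1205 normalised counts in db/db+Aldo hearts, against 788 to 1027 with a median of 857 in sham hearts. Of the 8 db/db+Aldo hearts 7 lay above the highest sham heart, and replicate 5 lay near the bottom of the sham range. The log2 change was 0.45 ± 0.10 (SE, adjusted p = 0.0028). Rmc1, which overlaps the end of Npc1 on the opposite strand over 9.9% of the Npc1 transcript, had 537 ± 38.3 in db/db+Aldo and 452 ± 25.1 in sham hearts and also rose, by 0.25 ± 0.06 (adjusted p = 0.00829). Whether reads of Rmc1 entered the Npc1 counts was not tested.

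Npc2, the soluble partner that hands cholesterol to Npc1 in the lysosome, had 729 ± 79.0 in db/db+Aldo and 713 ± 57.1 in sham hearts, a log2 change of 0.03 with a 95% interval of -0.13 to 0.18. Soat1, which esterifies cholesterol for storage, ranged from 64.1 to 113 in db/db+Aldo and 39.0 to 84.7 in sham hearts, a change of 0.38 ± 0.15 (adjusted p = 0.0812). Stard4, a cytosolic sterol carrier, had -0.01 ± 0.13. Of the lysosomal pair, then, the membrane protein's transcript passed the test and the soluble partner's did not.

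**Figure D3:**
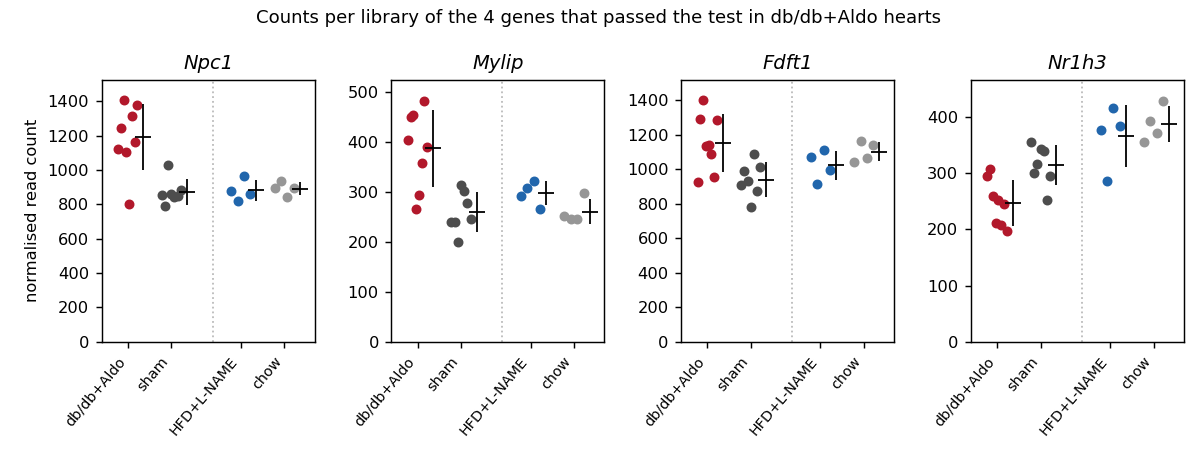
Normalised read count per library (vertical axis from 0) of Npc1, Mylip, Fdft1 and Nr1h3, each dot a heart, black marks the mean and SD, the 2 models apart by a dotted line. Npc1 has 7 and Mylip and Fdft1 have 6 of 8 db/db+Aldo hearts above every sham heart, and Nr1h3 has 5 of 8 below every sham heart.

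Run 2 libraries carry names of 2 kinds in the labels, of 4 characters or shorter, and each kind holds both groups. Among the shorter names (4 db/db+Aldo and 4 sham hearts) the log2 changes were 0.47 for Npc1, 0.65 for Mylip, 0.38 for Fdft1 and -0.30 for Nr1h3. The first 3 were called, of 33 members, where 751 genes were higher and 560 lower of 14092 in that fit. Among the 4-character names (4 db/db+Aldo and 3 sham hearts) they were 0.44, 0.48, 0.16 and -0.41 in the same order, and 0 were called, with 430 genes higher and 259 lower of 14129 in that fit. Directions were the same in both.

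The count of rises and falls depended on which values were used and how libraries were scaled. By total count, which includes the mitochondrial transcripts, 1 member was higher and 8 lower, and the median of all genes moved to -0.22. Of all 14152 genes tested by total count, 555 were higher and 4771 lower, so the members' lower calls went with a fall over all genes. With the deposited values 0 members were higher and 10 lower, with a median of all genes of -0.28. Of all 13999 genes tested there, 399 were higher and 4901 lower. Those values are not scaled for depth and have a constant per gene and run taken off. Values below 0 were set to 0 for this fit, so it differs from the others by more than scaling. By total count without mitochondrial genes it was again 3 members higher and 1 lower, where 1331 genes were higher and 1447 lower of 14147. Relative to the median of all genes, Mylip, Npc1 and Fdft1 were above it and Nr1h3 below it in each of the 4 settings. Npc1 and Fdft1 were called only under size factors and total count without mitochondrial genes. Mylip was also called under total count, and Nr1h3 in all 4.

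**Figure D4:**
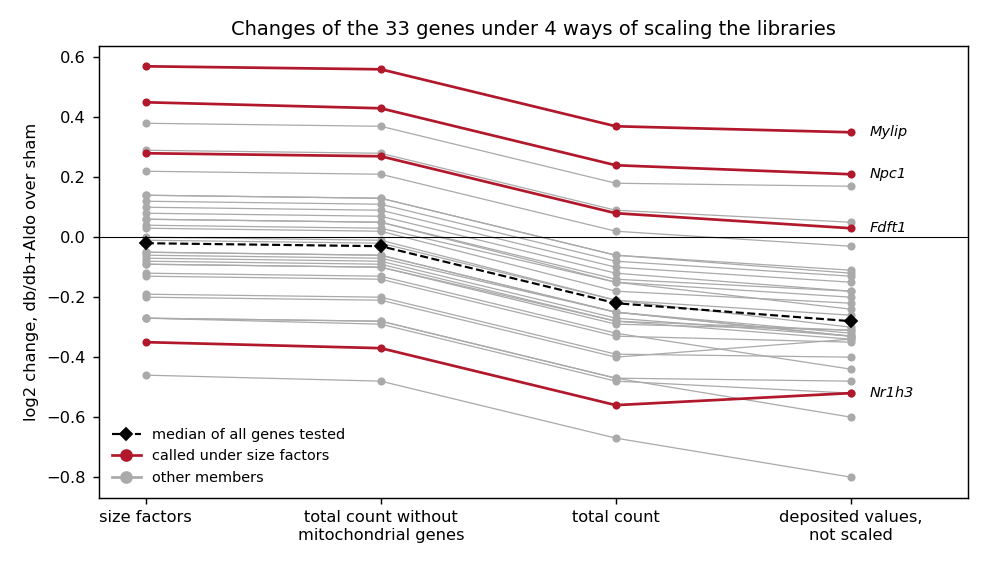
Log2 change, db/db+Aldo over sham, of each of the 33 genes (lines) in 4 settings, with the median of all genes tested as black diamonds. The setting of deposited values is unscaled and also has a constant per gene and run taken off. The genes shift down together by about as much as that median, from size factors (-0.02) to total count (-0.22) and deposited values (-0.28), with Mylip, Npc1 and Fdft1 above it and Nr1h3 below.

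Some cell type markers were called in the same hearts, where 19.2% of all genes tested were called. The called share was 41.7% of macrophage and 60.0% of fibroblast markers. It was near or below that of all genes for Schwann cell (20.0%), cardiomyocyte and endothelial markers (12.5% each). Of 12 macrophage markers 5 rose (Cd68, Lyz2, C1qc, Ccr2 and Lyve1) and 0 fell, with sums per library of 6685 to 9250 in db/db+Aldo hearts and 5172 to 7719 in sham hearts. Of 10 fibroblast markers 6 rose, with sums of 20064 to 25767 in db/db+Aldo and 16371 to 19512 in sham hearts. Of 8 cardiomyocyte markers 1 fell, the myosin heavy chain gene Myh6, with a log2 change of -0.34 ± 0.10 (adjusted p = 0.0213), and of 5 Schwann cell markers tested 1 rose, Pmp22, with 0.21 ± 0.06 (adjusted p = 0.0213). Of 5 red cell markers 0 passed, with 2 at an unadjusted p under 0.05. Of 8 endothelial markers 1 rose, and of 7 adipocyte markers 2 were tested and both fell, with sums of 2.12 to 51.7 in db/db+Aldo and 24.7 to 214 in sham hearts; of the adipocyte markers, Adipoq was at 0 in at least 1 db/db+Aldo heart and in no sham heart. The part of these cells in the changes of Npc1, Mylip, Fdft1 and Nr1h3 was not tested. In whole-heart RNA, fewer cells of a type and less RNA per cell cannot be told apart.

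Among 50 further genes of the pathway, 46 were tested in db/db+Aldo hearts, and 4 were higher and 3 lower (15.2%, against 19.2% of all genes). In cholesterol handling 4 of 18 tested rose. Lipa, the lysosomal lipase that frees cholesterol from its esters, had 672 ± 82.8 in db/db+Aldo and 457 ± 62.2 in sham hearts, a log2 change of 0.56 ± 0.09 (adjusted p = 0.000263). Scarb2, a lysosomal membrane protein, had 3576 ± 411 in db/db+Aldo and 2780 ± 208 in sham hearts, a change of 0.36 ± 0.08 (adjusted p = 0.00266). Abca7, a lipid transporter, rose by 0.43 ± 0.09 and Stard3, a sterol carrier on late endosomes, by 0.20 ± 0.07. The Stard3 call was lost in 19 other settings, and with values as deposited its change was -0.04. Scarb2 and Abca7 each lost the call by total-count scaling, with values as deposited and among 4-character names, with log2 changes of 0.12 to 0.46 for Scarb2 and 0.21 to 0.38 for Abca7 there.

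Of 8 further synthesis genes 1 passed and fell, Acss2, which makes acetyl-CoA from acetate, with 589 ± 26.6 in db/db+Aldo and 712 ± 47.4 in sham hearts. Every db/db+Aldo heart (550 to 623) lay below every sham heart (658 to 766), and the log2 change was -0.27 ± 0.06 (adjusted p = 0.0031). Of 10 further control genes 2 fell: Spring1, which is needed for SREBP cleavage, with a log2 change of -0.33 ± 0.09 (adjusted p = 0.0116), and Rxrb, a partner of the LXR receptors, with -0.38 ± 0.08 (adjusted p = 0.00157). Among 4-character names alone the calls of Acss2 (-0.23), Spring1 (-0.24) and Rxrb (-0.36) were lost. In the side branch to prenyl groups, ubiquinone and dolichol 0 of 10 genes passed, with 0 at an unadjusted p under 0.05 and log2 changes of -0.03 to 0.12.

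The second comparison set HFD+L-NAME hearts against chow hearts. Here 0 of 33 members passed limma's test, with 4 at an unadjusted p under 0.05 (Srebf1, Insig1, Abca1 and Ebp), and 0 passed in the authors' deposited table. Of the 13801 genes tested 2.18% were called (1.18% higher, 1.0% lower). An unadjusted p under 0.05 was found for 2108 of the 13801, so the members' share at that p was not above that of all genes. The median log2 change of the members was -0.05, and that of all genes -0.00.

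Insig1 and Srebf1 had higher means in HFD+L-NAME hearts, without passing the test. Insig1 had 287, 255, 215 and 249 normalised counts in HFD+L-NAME hearts, against 208, 171, 228 and 197 in chow hearts. Of the HFD+L-NAME hearts 3 lay above the highest chow heart and replicate 3 lay inside the chow range. The log2 change was 0.32 ± 0.12 (SE, adjusted p = 0.202). Srebf1 had 720, 553, 691 and 592 in HFD+L-NAME hearts, against 603, 474, 516 and 450.3 in chow hearts, a change of 0.32 ± 0.11 (adjusted p = 0.166), with 2 hearts above the chow range. Srebf2 had 772, 609, 644 and 676 in HFD+L-NAME hearts, against 648, 647, 644 and 711 in chow hearts, a change of 0.02 ± 0.08. Insig2 had -0.06 ± 0.10 and Scap 0.05 ± 0.07.

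Abca1 had 513, 577, 553 and 403 normalised counts in HFD+L-NAME hearts, against 444, 387, 469 and 332 in chow hearts. Its change was 0.32 ± 0.12 (adjusted p = 0.228), with 3 hearts above the chow range. Abcg1 had 114, 169, 59.4 and 80.2 in HFD+L-NAME hearts, against 94.4, 91.1, 72.4 and 84.8 in chow hearts, a change of 0.20 ± 0.19 (adjusted p = 0.690). The HFD+L-NAME hearts lay on both sides of the chow range for Abcg1, 2 above it and 1 below. Mylip had 0.19 ± 0.10, Nr1h3 -0.09 ± 0.10 and Nr1h2 -0.06 ± 0.06.

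Of the 19 synthesis enzymes 0 passed, 1 had an unadjusted p under 0.05, and 15 had a log2 change below 0, with a median of -0.11. Ebp, a sterol isomerase, had 158 ± 22.1 in HFD+L-NAME and 198 ± 12.9 in chow hearts (SD, n = 4 each), a change of -0.34 ± 0.11 (adjusted p = 0.175). Cyp51 had 190.1, 171, 196 and 195 in HFD+L-NAME hearts, against 209, 215, 225 and 197 in chow hearts, a change of -0.17 ± 0.09 (adjusted p = 0.409). It was the one member whose groups did not overlap, where 8.20% of all genes tested had such groups. The mevalonate enzymes ran from -0.33 for Idi1 to 0.41 for Acat2, both low in count, and the sterol enzymes from -0.34 for Ebp to 0.31 for Hsd17b7. Summed over the 19 enzymes, counts were 3097 to 3483 in HFD+L-NAME and 3397 to 3635 in chow hearts, with Fdft1 (means of 1022 and 1102) the largest part. In transport, Npc1 had 879, 818, 967 and 862 in HFD+L-NAME hearts, against 895, 936, 843 and 895 in chow hearts, a change of -0.02 with a 95% interval of -0.17 to 0.13. Npc2 had 0.00 ± 0.09, Stard4 -0.12 ± 0.18 and Soat1 0.11 ± 0.21.

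**Figure D5:**
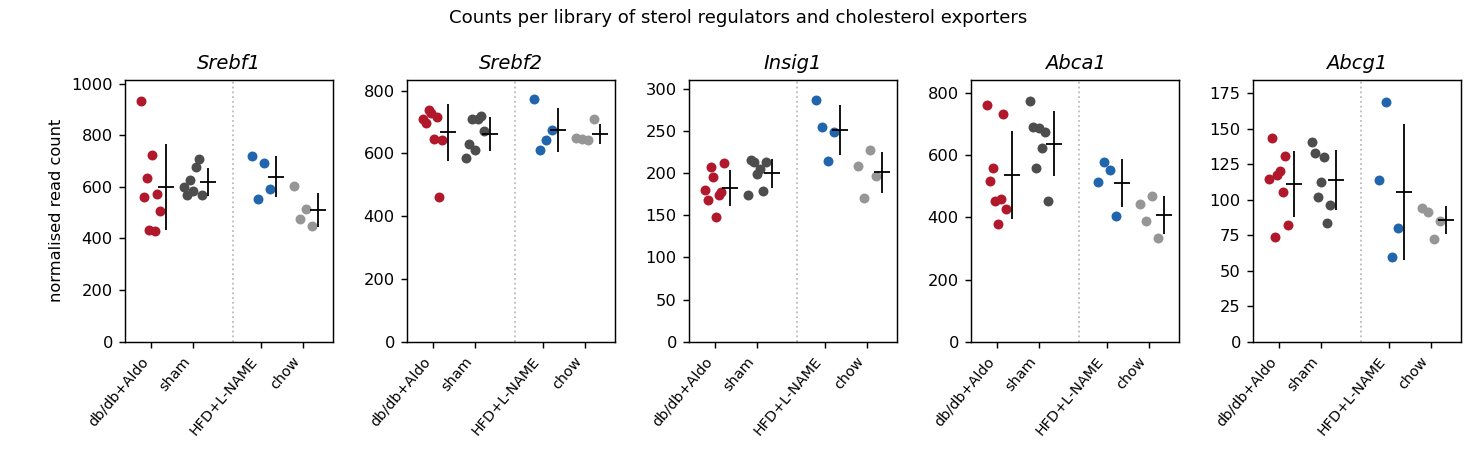
Normalised read count per library (vertical axis from 0) of Srebf1, Srebf2, Insig1, Abca1 and Abcg1, each dot a heart, black marks the mean and SD, the 2 models apart by a dotted line. Insig1 and Abca1 have 3 of 4 HFD+L-NAME hearts above the chow range. For each of the 5 genes the groups overlap in both models, and none was called in either.

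Of the 46 further pathway genes tested in HFD+L-NAME hearts 0 passed, with 1 at an unadjusted p under 0.05. Macrophage markers rose for 2 of 12 genes (Adgre1 and Cd68), where 2.18% of all genes tested were called. Sums over the 12 were 6868 to 10306 in HFD+L-NAME and 6671 to 9088 in chow hearts. Of 5 Schwann cell markers tested 1 fell, Sox10, with 23.9 ± 7.80 in HFD+L-NAME and 59.3 ± 22.3 normalised counts in chow hearts (SD, n = 4 each), a log2 change of -1.26 ± 0.27 (adjusted p = 0.0307) with groups that did not overlap. Of 8 cardiomyocyte markers 0 passed, with 5 at an unadjusted p under 0.05 and 7 of the 8 changes below 0, and of 5 red cell markers 0 passed, with 4 at such a p and all 5 changes above 0. The part of these cells in the members' values was not tested. With 4 hearts a group, the 95% intervals of the members' log2 changes lay between -0.94 and 1.08, the widest for Acat2, and a p that misses the threshold does not show that values did not differ.

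The difference of the 2 models' log2 changes was tested in 1 fit of all 23 libraries. Of the members 0 passed limma's test, with 7 at an unadjusted p under 0.05, where 5.39% of 13589 genes passed and 19.8% had such a p. Npc1 had the smallest p: its change was 0.45 in db/db+Aldo and -0.02 in HFD+L-NAME hearts, a difference of 0.46 ± 0.15 (SE, adjusted p = 0.0621). Insig1 came next, with -0.13 in db/db+Aldo and 0.32 in HFD+L-NAME hearts, a difference of -0.45 ± 0.15 (adjusted p = 0.0763). By total-count scaling 3 of 33 members passed, each with a difference of changes below 0. Of all 13604 genes tested there, 176 passed with a difference above 0 and 1168 below 0, and the median difference moved to -0.23. Among the further pathway genes Abca7 passed, with a difference of 0.60 ± 0.15 (adjusted p = 0.0173). As each model was a run of its own, run and model cannot be told apart in this contrast.

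Sex gave no call among the members. For the interaction of sex and treatment in db/db+Aldo hearts, 0 of 14121 genes passed limma's test, 381 had an unadjusted p under 0.05, and so did 4 members. The smallest p values were those of Cyp51 (difference of log2 changes -0.45 ± 0.18) and Sqle (-0.75 ± 0.31), both with an adjusted p of 0.9996. Sqle, a rate-limiting enzyme of the sterol steps, averaged 39.1 in female and 54.6 in male db/db+Aldo hearts (n = 4 each), and 40.7 in female and 32.9 in male sham hearts (n = 4 and 3). Within db/db+Aldo hearts, females against males gave 0 members past the threshold, where 0.0567% of genes passed. At an unadjusted p under 0.05 stood 2.63% of all genes tested and 4 members. The smallest p values were those of Ebp (-0.31 ± 0.13) and Sqle (-0.47 ± 0.21).

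In the HFD+L-NAME model the interaction gave 0 members past the threshold, where 0.00725% of genes passed. At an unadjusted p under 0.05 stood 6.64% of all genes tested and 2 of the 33 members. These were Insig2 (-0.42 ± 0.17) and Abcg1 (-0.76 ± 0.31). Abcg1 had 59.4 and 80.2 normalised counts in the 2 female and 114 and 169 in the 2 male HFD+L-NAME hearts, against 72.4 and 84.8 in female and 94.4 and 91.1 in male chow hearts. Females lay below males in both groups, by -1.0 ± 0.22 within HFD+L-NAME hearts (adjusted p = 0.111), where 0.254% of genes passed that contrast. Insig2 had the next p there, with -0.27 ± 0.12. In that contrast 2 members and 11.4% of all genes tested had an unadjusted p under 0.05. A sex had 2 hearts per group in this model.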

How the data were processed

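For the authors' files, the submitters' processing notes name mm10, GRCm38, limma, featureCounts and DESeq2, without roles. Aligner, versions, annotation and use of strand: not given in the sources used here. A batch-corrected table of 55487 genes was deposited by the authors. Its values were read as raw counts from which a constant per gene had been taken off in each run: 10.2% lie below 0 and the lowest is -2309.7. The authors' mean signal in their comparison tables (mean scaled count, per the file headers) gave that constant, and the lowest count then came out whole, within 0.001, for 99.98% and 100% of genes in the 2 models; 3095 genes were not recovered. This unit differs from the normalised expression assumed when the tests were set, and the test was run on recovered counts divided by size factors. The authors' deposited log2 fold changes, their standard errors, Wald scores and p-values, per the file headers, were used only where named; a list of symbols without values was not used.

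Within a model, genes averaging 10 or more normalised counts entered limma 3.58.1 (R 4.3.3) on log2(normalised count + 1), with a variance trend, sex as covariate and Benjamini-Hochberg adjustment over all genes at 0.05, within each model; other contrasts used group by sex means or all libraries in 1 fit. The script was tested on simulated counts. Negative binomial tests were not run on the recovered counts; limma voom was. Alternatives changed the pseudocount (0.5, 5), the filter (none, 50), scaling, covariates and libraries, among them a fit without libraries an earlier analysis doubted (sham 1 and 7, db/db+Aldo 1 and 5, HFD+L-NAME 3). Shared sequence was found with BLAST 2.17.0 over GENCODE M21 transcripts (at least 95% identity over 150 bases). Python 3.11.15, pandas 2.3.3, numpy 2.4.6 and matplotlib 3.10.9 were used. Intervals are 95% intervals of the fit.

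All 33 members are accounted for; values per library are given for called members and for Insig1, Srebf1, Srebf2, Abca1 and Abcg1, further pathway genes are named where called, and other contrasts name the 2 members with the smallest p. Members and lists were chosen with earlier results of these data known. Some further pathway genes are not reported by name here.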

Additional observations from a re-analysis of the deposited data

Results flagged for a closer look

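In 10 of 132 groups of libraries, 1 heart stood apart from the rest of its group by Dixon's 95% limit, where chance flags about 1 in 20 groups. In db/db+Aldo hearts, replicate 5 was low for Sc5d (274, the next at 347 normalised counts) and replicate 7 low for Srebf2 (460.0, the next at 642). In sham hearts, replicate 6 was high for Msmo1 (157, the next at 109), Nsdhl (127, the next at 104) and Stard4 (155, the next at 114), all sterol enzymes or carriers, and it was the highest of the 7 sham hearts for 7 of the 19 synthesis enzymes. Sham replicate 7 was low for Acat2 (21.7, the next at 29.1) and high for Npc2 (836, the next at 714). Sham replicate 3 was high for Npc1 (1027, the next at 881), and without it the change of Npc1 stayed called. In chow hearts, replicate 4 was high for Srebf2 (711, the next at 648) and for Mylip (297, the next at 252).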

How the results depend on the processing

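In db/db+Aldo hearts, 3 members higher and 1 lower became 1 and 8 by total-count scaling and 0 and 10 with values as deposited. Over all genes, 1407 higher and 1300 lower of 14121 became 555 and 4771 of 14152, and 399 and 4901 of 13999. Among 4-character library names it was 0 and 0, among shorter names 3 and 0. Lower calls were 2 with a pseudocount of 5, 2 without the sex covariate and 3 when all 23 libraries shared a fit. They were 4 when the doubted libraries were left out (Nr1h3 with Hsd17b7, Cyp51 and Nr1h2). Over all genes tested, lower calls in these settings were 1309, 1384, 1577 and 1513 in the same order, against 1300 in the reported fit. Leaving out each library in turn gave 2 to 4 higher and 0 to 4 lower, with 4 and 4 without db/db+Aldo replicate 5 (also Soat1, Cyp51, Hsd17b7 and Nr1h2). Without that replicate the calls over all genes rose too, to 1850 higher and 1750 lower of 14117. Hsd17b7 was called in 12 settings and Cyp51 in 8. Of 1018 recomputed member values 22 lost and 35 gained a call. A member called in the reported fit never changed sign, while 61 uncalled values over 21 members did. In HFD+L-NAME hearts 0 members were called in each setting run, and 26 uncalled values over 13 members changed sign. Of the further genes, Stard3 (0.20) went to -0.04 with values as deposited. For the difference between models total-count scaling gave 3 members below 0, where 1168 of 13604 genes also passed below 0. The cause of these changes was not tested. The replicate number as a block gave 2 higher (Npc1, Mylip) and 2 lower (Nr1h3, Hsd17b7) members in db/db+Aldo hearts and 0 in the other model; same-numbered samples correlated by -0.219 to 0.115 in the first model, and by 0.093 to 0.385 in the other, where 2 of 4 correlated best with their own number; not every pair passed 0.1 in either, so no pairing was taken. With the replicate block 1007 genes were higher and 842 lower of 14121 in db/db+Aldo hearts. Low counts, under 50 in the mean of each group for Idi1, Fdps, Acat2, Sqle and Tm7sf2, limit what could be detected.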
